A study of Drosophila melanogaster with 4 samples.

Results

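The Antennapedia complex of Drosophila melanogaster, a cluster of Hox genes on chromosome arm 3R, was examined for binding of Insensitive (Insv) in embryos. All called Insv positions whose first base lay from 2480001 to 2840001 of 3R (build dm3, counted from 1), an interval of 360 kb, were taken as members, whatever their score. There were 52 of 7754 positions in all: 33 of 5364 from embryos aged 2.5-6 h (early) and 19 of 2390 from embryos aged 6.5-12 h (late). Chromatin was immunoprecipitated with an Insv antibody from w[1118] embryos, a white-eyed stock that the labels list as wild type, and sequenced, with 1 library per age. Whole embryos were used, so each list mixes all tissues, and all samples share the w[1118] background. An IgG control of each age belongs to the series and was not analysed here. There were no replicates, so no value below has a replicate error, no test was made, and every difference is one between these particular lists. Sequencing depth is unknown for both lists.

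Hox genes encode homeodomain transcription factors that give segments of the body axis their identity. In this complex, labial (lab) acts in the head and midgut, proboscipedia (pb) in the adult mouthparts, Deformed (Dfd) in the mandibular and maxillary segments, Sex combs reduced (Scr) in the labial and prothoracic segments, and Antennapedia (Antp) in the thorax. The complex also holds genes of the same family that took on other roles: bicoid (bcd), the maternal organizer of the anterior, zerknüllt (zen), needed for the extraembryonic tissue, and fushi tarazu (ftz), a pair-rule gene of early segmentation. Insv is a nuclear protein with a BEN domain that binds a palindromic DNA site and acts as a transcriptional repressor, and it has also been linked to chromatin boundaries, elements that keep the enhancers of neighbouring genes apart.

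A RefSeq gene table of Release 6 of the genome listed all 8 genes in the order lab, pb, zen, bcd, Dfd, Scr, ftz and Antp. From lab to Antp it held 43 genes, of which 19 were protein-coding. The 11 protein-coding genes besides the 8 were Edg84A and 7 Ccp84A genes (cuticle protein genes) between lab and pb, zen2 and CG34297 between pb and zen, and Ama (amalgam, a secreted immunoglobulin-domain protein) between bcd and Dfd. The microRNA gene mir-10 lay between Dfd and Scr. That table is of another build than the positions, and no dm3 annotation or sequence was used here. Positions are therefore given by coordinate and by distance from the start of the interval, and no position was assigned to a gene, promoter, exon, intron or boundary. The words lab side and Antp side below stand for the lower and the higher coordinates and follow the gene order of Release 6. The interval's bounds could not be checked against the genes for the same reason.

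The interval was rich in Insv positions at both ages. The arm was divided into 76 windows of 360 kb laid end to end from the interval. The interval's 33 early positions compare with a median of 15 in the other 75 windows (quartiles 11 and 20.5, range 1 to 40), or 2.20 times that median, and 4 windows held more. Its 19 late positions compare with a median of 6 (quartiles 4 and 10, range 0 to 27), or 3.17 times, and 2 windows held more. Those with more early positions started at 3R 5000001, 5360001, 11840001 and 24800001, with 37, 35, 35 and 40. The windows with more late positions started at 3R 12560001, with 27, and 5000001, with 22. With positions up to 1000 bp apart joined into regions, the interval had 20 early regions against a median of 10 and 14 late regions against a median of 4. Only 1 other window had more late regions. The rank depended on the bounds, which were not checked against the genes. With bounds moved inward by 20 kb, 14 of 85 other windows held as many early positions or more, and 12 as many late ones or more. That leaves out calls near both bounds, among them a group at 3R 2822931 to 2827876 with 7 early and 5 late positions.

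The window next to the interval on its Antp side was dense as a whole, although its first call lay 23115 bp beyond the bound. It held 32 early and 15 late positions, and the one after it held 1 of each. The window on the lab side held 15 early and 5 late positions. In the interval there were 1.74 early positions per late one, and 60 of the 73 other windows that had any late position had a higher ratio (median 2.33). The count relative to the median window was thus higher in the late list, a difference that was not tested.

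**Figure D1:**
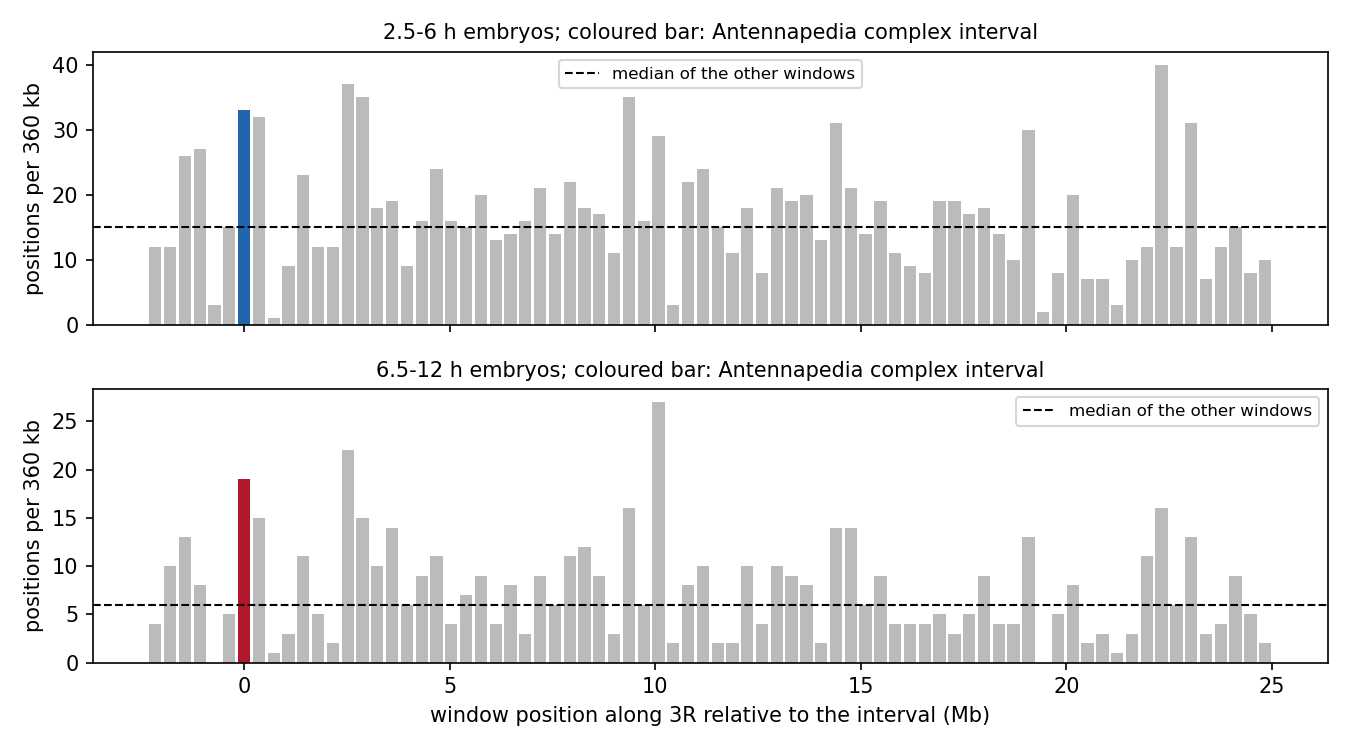
Number of called Insv positions in end-to-end windows of 360 kb along arm 3R, by distance from the Antennapedia complex interval in Mb, for 2.5-6 h embryos (top) and 6.5-12 h embryos (bottom). The coloured bars are the interval, with 33 early and 19 late positions, and the dashed lines are the medians of the other windows, 15 and 6.

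Scores of the members ran from the lowest decile of each list to its highest. The score is the authors' own value with no stated scale, so it is given with its percentile, the percentage of positions in the same list that scored lower. Early members scored 5.21 to 142, with a median of 11.2 where the whole list had 11.3, and their median percentile was 49.6. Late members scored 3.47 to 127, with a median of 15.2 against 13.6 in the whole list and a median percentile of 55.0. In the highest-scoring decile of its list there were 3 of 33 early members, where 10.3% of early positions on 3R were in it, and 2 of 19 late members, where 11.1% of late positions on 3R were. The interval thus differed from most windows in how many positions it held, while its typical score was near the middle of each list.

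Positions of both ages, chained when up to 5000 bp apart, fell into 13 groups, of which 10 held positions of both lists, 2 only early and 1 only late ones. Stretches without a call lay between them. The longest stretch without an early position ran for 81.6 kb from 3R 2594173, and 80 of 1289 early spacings on 3R (6.21%) were longer. A single late position lay within it. This stretch was the longest of 32 early spacings in the interval. Its share was taken over single spacings, so it does not show the stretch to be unusual. Without a position of either list, the longest stretches were 58.5 kb from 3R 2617330, 57.9 kb from 2738602 and 49.8 kb from 2535577. Of the 659 spacings over 5 kb on 3R, which had a median of 22.9 kb, 19.4% were longer than the first of these. That stretch too was picked as the longest of the interval. Divided into sixths of 60 kb, the interval held 8, 5, 0, 4, 4 and 12 early positions and 4, 1, 1, 2, 3 and 8 late ones from the lab side to the Antp side. The last sixth held more positions of both lists than any other sixth, and the third had no early position.

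**Figure D2:**
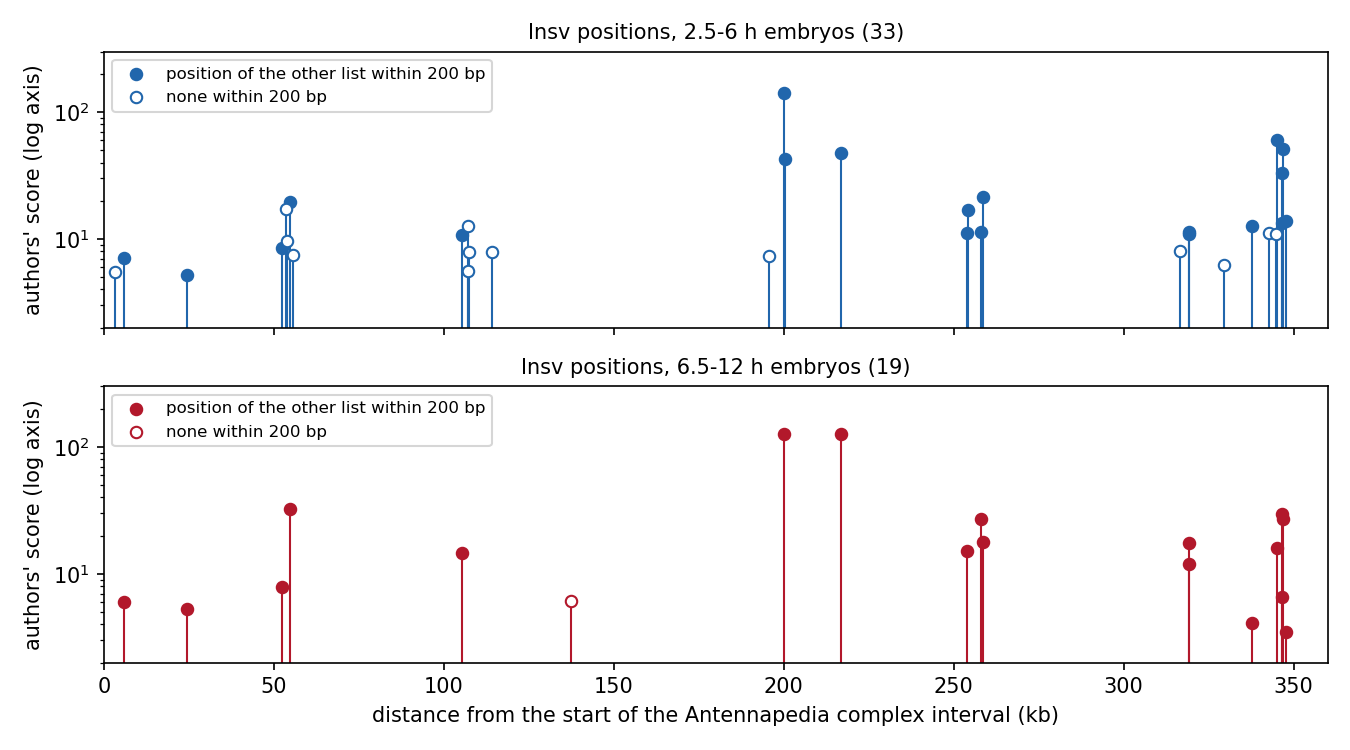
Called Insv positions in the Antennapedia complex interval by distance from its start in kb (lab side at the left, Antp side at the right), with the authors' score on a log axis, for 33 early (top) and 19 late positions (bottom). Filled points have a position of the other list within 200 bp; 1 late and 13 early points are open, and the highest points of both lists are near 200 kb.

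The highest scores of the interval were at sites 16.6 kb apart at about 200 and 217 kb from its start. At 3R 2680176 to 2680177 the early score was 142 (number 31 of 5364, percentile 99.4), and 8 bp away the late score was 127 (number 31 of 2390, percentile 98.7). The early list had a second position at 2680312, 136 bp further on, with a score of 42.9 (percentile 88.2), and the late list had none of its own there. The site was near the top of both lists.

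The other site lay at 3R 2696738 to 2696739 and was called at the identical base in both lists. Its early score was 47.2 (number 560, percentile 89.6) and its late score was 127 (number 32, percentile 98.7). It stood alone: the nearest called positions on either side were 16.4 and 37.3 kb away. These sites took adjacent places in the late list, numbers 31 and 32, while in the early list they were 529 places apart. Together they held 50.6% of the summed late score of the interval and 28.3% of the summed early score, or 34.7% with the second early call at 2680312 included. The score scale is unknown and may differ between the lists, so these shares do not measure a change between ages. The top early score of the interval was exceeded in 4 of the 75 other windows, and its top late score in 6 of the 73 windows with a late position. A window with more positions has more chances of a high top score, and these windows were not matched for count.

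The richest group lay at the Antp side of the interval, at 3R 2822931 to 2827876, 343 to 348 kb from its start. It spanned 4946 bp and held 7 early and 5 late positions. The early position at 2825130 scored 60.4 (percentile 93.2), and the late one 1 bp away scored 15.9 (percentile 56.7). Further along came 3 positions in each list, spaced 266 and 238 bp apart early and 246 and 245 bp apart late. Their early scores were 13.3, 32.9 and 51.6, and the late scores of their partners, at most 12 bp away, were 6.61, 29.5 and 27.3. The early triplet thus had its highest score at the end nearest to the Antp side, while the late one had it in the middle. At 2827871 the early score was 13.7 (percentile 60.5), and the late score 4 bp away was 3.47 (percentile 1.30), the lowest of the late members. The 2 early positions of the group with no late partner, at 2822931 and 2824875, scored 11.2 and 11.04, and the second of these was 256 bp from a late position, just beyond the 200 bp limit. The group held 29.1% of the summed early score of the interval and 16.5% of the summed late score, shares that do not measure a change between ages either.

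A group at 3R 2733995 to 2738603, about 254 to 259 kb from the start, held 4 early and 3 late positions, and all of them had a partner. Its early scores were 11.05, 16.8, 11.4 and 21.5, and its late scores were 15.2, 27.2 and 17.8. The highest early score was at 2738595, and the highest late score was at 2738111, the call before it. At 2796473 to 2799296 there were 3 early and 2 late positions. A close pair there, 123 bp apart early and 151 bp apart late, scored 11.3 and 10.9 early and 17.4 and 12.0 late, and the early position before it, with a score of 7.999, had no partner.

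Nearer to lab, a group at 3R 2532249 to 2535578, about 52 to 56 kb from the start, held 5 early and 2 late positions. Its strongest early position, at 2534765 with a score of 19.7, had a late partner 7 bp away with 32.3 (percentile 77.8). Its close early pair at 2533686 and 2533854, 168 bp apart with scores of 17.2 and 9.55, had no late position nearer than 918 bp. The score of 17.2 (percentile 69.3) was the highest of the early members without a partner. At 2585408 to 2587340 there were 4 early positions and 1 late position. The late call, with a score of 14.6, lay 26 bp from an early one of 10.7, while an early triplet at 2587041 to 2587340 with scores of 5.57, 12.6 and 7.86 was 1607 bp or more from the nearest late position. Both groups thus combined an early position that recurred late with close-set early positions that had no late call.

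The remaining groups held at most 2 early positions and 1 late position each. At the lab end, the early position at 3R 2483176 scored 5.47 and had no late partner. The one at 2485850 scored 7.13, with a late partner of 5.97, and that at 2504394 scored 5.21, with a late partner of 5.24. Lone early positions without a partner lay at 2594173 and 2809549, with scores of 7.92 and 6.29. An early position at 2817850 scored 12.7 (percentile 56.2), with a late partner 51 bp away of 4.08 (percentile 3.10). The late position at 2617330, with a score of 6.08 (percentile 12.2), was the 1 late member without an early partner, and the nearest early position was 23157 bp away. These isolated positions had low scores in both lists, apart from the early one at 2817850.

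More of the interval's early positions recurred late than was typical of the early list. Of the 33 early members, 20 had a late position within 200 bp, or 60.6% (95% exact binomial interval 42.1 to 77.1), where 43.3% of the whole early list and 42.9% of early positions on 3R had one. Among the 75 other windows, 9 had a higher share (median 41.7%, quartiles 31.3 and 51.8%). Of the 19 late members, 18 had an early position within 200 bp, or 94.7% (74.0 to 99.9), close to the 94.6% of the whole late list and the 93.8% on 3R. The first interval contains both the whole-list and the 3R share. These limits reflect counting error alone, as if positions were independent, but close positions can share a partner. That was so at 2680184 and 2733995, where 1 late position was the nearest of 2 early ones. With each late position counted once, as the mutually nearest, 18 of the 33 early members had a partner (54.5%), where 41.6% of the whole early list had. As nearly all late positions had an early partner, the early share largely follows from the counts of 33 early and 19 late members. It is thus not a result separate from the interval's low number of early positions per late one.

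Members were also set beside other positions of like score. If each early member had a late partner as often as the other positions of its score decile, 41.0% or 13.5 of the 33 would have had one, against the 20 counted. This is a description of 1 library and no test was made of it. The 20 count some late positions more than once, as the decile shares can, and 18 were mutually nearest. Like the early share itself, the excess is not a result separate from the interval's low number of early positions per late one. In the 3 highest deciles all 8 early members had a partner, where the shares of those deciles would give 6.91, so members and list were close there. Above the median of the early list by score (deciles 6 to 10), 14 of 16 members had one, where 65.8% of the whole list had, and below it 6 of 17, where 20.8% had. The median score was 13.5 (percentile 59.8) for the early members with a partner and 7.92 (percentile 28.3) for the 13 without. Over the whole early list these median percentiles were 76.3 and 34.9, so members with a partner stood lower in the list than positions with a partner did generally.

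Of the 13 early members with no late partner, 11 lay in a 5000 bp group with an early position that had one, where 40.2% of the 736 early positions without a partner on 3R did. However, the interval held 2.2 times the early and 3.17 times the late positions of the median window. The share was not set beside windows of like density, so it cannot be told apart from that density. Only 3 of the 13 were within 1000 bp of a late position, and 2 were more than 5000 bp from any. The 11 lay 256 to 4373 bp from the nearest late call, and the other 2 lay 8352 and 8739 bp from it.

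**Figure D3:**
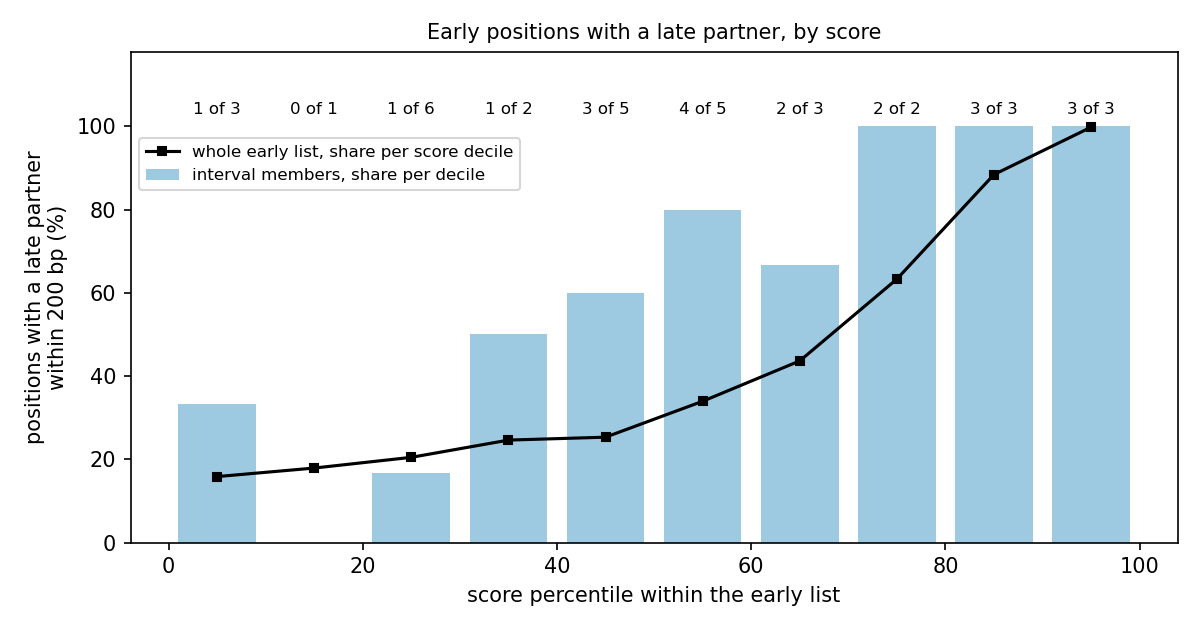
Percentage of early positions with a late position within 200 bp, by score percentile within the early list in steps of 10, for the interval's members (bars, with counts above) and the whole early list (black squares). The bars stand above the squares in 8 of the 10 deciles, and the squares of the 3 highest deciles stand at 63.3, 88.4 and 99.8%.

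Paired calls in the interval coincided closely. There were 18 pairs of positions that were each other's nearest within 200 bp. Their median distance was 7.50 bp, 14 of 18 were at most 20 bp apart (77.8%), and the widest was 51 bp. Over all 2233 such pairs the median was 8 bp and 83.2% were at most 20 bp apart.

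Up to 319 kb from the start of the interval, the late scores of these pairs were mostly high relative to early scores, against all pairs. At the Antp end of the interval they were mostly low. This split was chosen after the values were seen, so the contrast follows in part from that choice. The score scale may differ between the lists, so the ratio of late to early score is read only against other pairs. Those pairs were not matched for early score, which is the divisor of the ratio. Whether the interval's ratios differ from those of pairs with like early scores was not tested. Over all 2233 pairs the median ratio was 0.70 (quartiles 0.47 and 1.07), and the late score was the higher one in 28.9%. Over the 531 pairs on 3R the median was 0.78, and the late score was higher in 34.8%. In the interval the median ratio was 0.92, and the late score was higher in 8 of 18 pairs (44.4%), which is nearer to the pairs of 3R than to those of all arms. Among 47 other windows with at least 5 pairs, the median ratio had quartiles of 0.68 and 0.92, and 12 windows were above the interval.

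Within the interval the ratios differed by position, with overlapping ranges and by a split chosen after the values were seen. In groups 1 to 10 from the lab side, up to 319 kb from the start, all 12 pairs had a ratio above the median of all pairs, from 0.83 to 2.69 with a median of 1.23, and 8 had a higher late score. In the last groups, from 338 kb on, 6 pairs had ratios of 0.25 to 0.90 with a median of 0.41, and none had a higher late score. Of these, 5 lay in a single group of 4946 bp. Their early scores were 12.7 to 60.4, while those of the 12 other pairs ran from 5.21 to 142, most of them below 12.7. The contrast was not adjusted for early score. The highest ratio, 2.69, was that of the lone strong site at 2696738, and 99.0% of all pairs had a lower one. The pair at 2738109 followed with 2.38 (98.1% lower), then the one at 2534765 with 1.64 (91.4% lower). The lowest ratios were 0.25 at 2827871 and 0.26 at 2825130, where 5.28% and 5.73% of all pairs were lower. The strongest early site, at 2680176, had a ratio of 0.90 and the same place among all pairs at both ages, with 98.6% of pairs scoring lower.

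**Figure D4:**
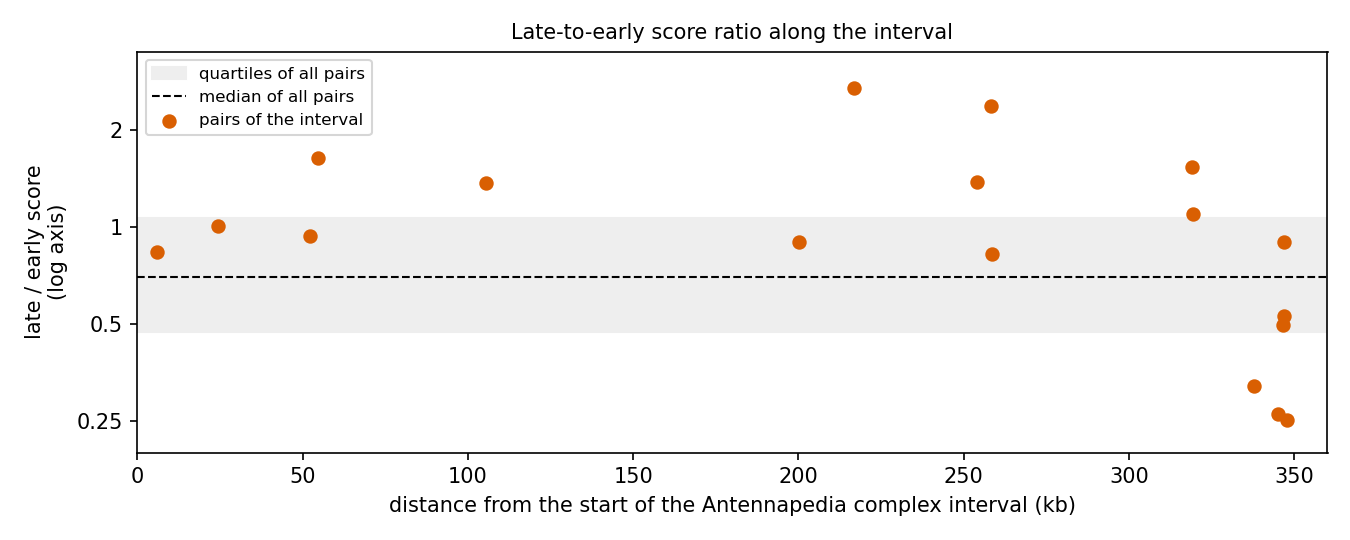
Ratio of late to early score (log axis) of the interval's 18 pairs by distance from the interval's start in kb; the dashed line and grey band are the median (0.70) and quartiles (0.47 and 1.07) of all 2233 pairs. The 12 pairs on the left lie above the dashed line, and 5 of the 6 pairs from 338 kb on lie below it. This split was chosen after the values were seen.

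**Figure D5:**
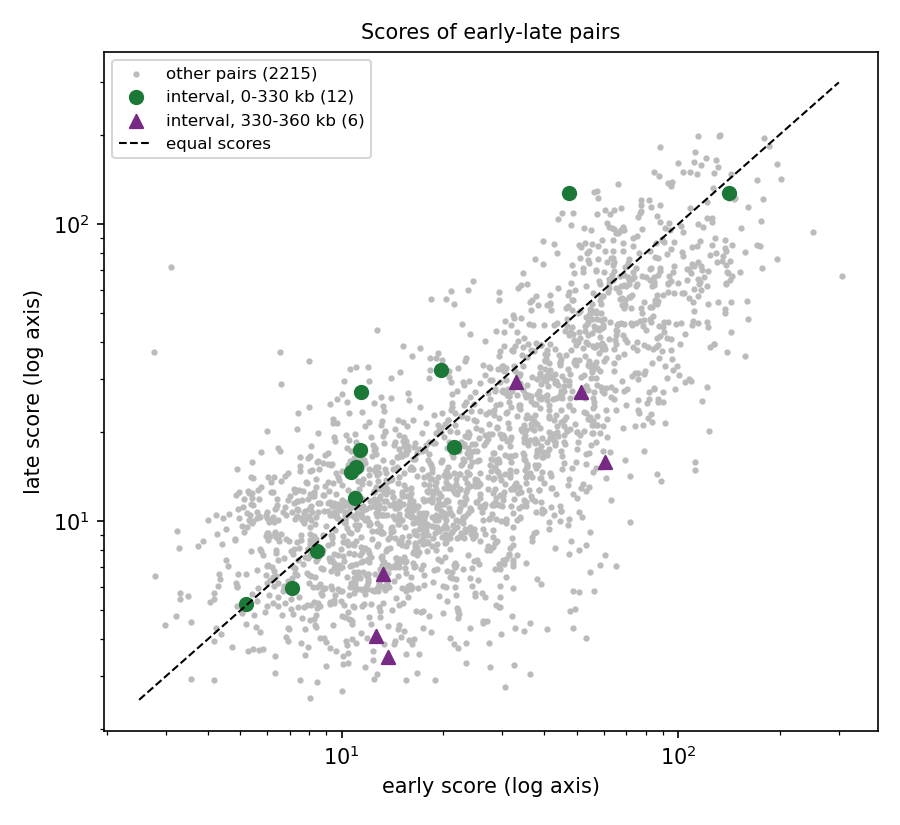
Early against late score (both log axes) of all pairs of positions within 200 bp, with the interval's pairs in colour: circles for the 12 pairs up to 330 kb from its start, triangles for the 6 beyond. Of the 12 circles, 8 lie above the line of equal scores and the others below it, among them the highest at 142 early and 127 late. All 6 triangles lie below the line. The split into circles and triangles was chosen after the values were seen.

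The name of each position in the files also carries a rank number whose meaning is not given in the sources used here. Across the early list it had a Spearman correlation of -0.65 with the score (5364 positions of 1 library), so it orders the positions differently from the score. The strong site at 2696738 had rank number 25 early and 36 late, lower numbers than those of the site at 2680176, which had 31 early and 60 late. Rank numbers were shared throughout both lists, with 2347 distinct numbers among 5364 early positions and 1175 among 2390 late ones. In the interval, each of the 7 early and 2 late sets of members up to 300 bp apart carried a single number. An example is 302 for the early triplet at 2826482 to 2826987. How often close sets elsewhere did so was not counted. Distant positions could share a number too: the late positions at 2485848, 2733995 and 2827875 all carried 1570, and those at 2504418 and 2617330 carried 1423.

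The bounds of the interval cut through no group. The early positions just outside it were at 3R 2472564, which scored 11.01, and 2863116, which scored 15.6. The first and last early positions inside were at 2483176 and 2827871, with scores of 5.47 and 13.7. The late positions just outside, at 2472556 and 2863139, scored 7.16 and 20.9, and those just inside, at 2485848 and 2827875, scored 5.97 and 3.47. On the Antp side the bound thus fell in a stretch of 35.2 kb with no call.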

How the data were processed

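Insv ChIP-seq libraries of 2 embryo ages, 1 per age, were used. The submitters' processing notes name Bowtie and build dm3. How peaks were called, at what threshold and whether against IgG is not given in the sources used here. The deposited lists hold positions of 2 bp with a score that the authors gave without a named scale. Depth is unknown, so scores carry no interval. Coordinates are printed 1-based. From these lists, members were counted, and percentiles, deciles and nearest distances were computed on the whole lists. A partner lay within 200 bp. Windows of 360 kb were laid end to end from the interval within the span of called positions on 3R. Shares carry 95% Clopper-Pearson (exact binomial) intervals. All member positions were eligible for naming. Alternatives were other windows, bounds, distances, score subsets and chaining distances. The members and measures were chosen with earlier results of these data known. The code was tested on simulated lists. Calculations were made in Python 3.11.15 with pandas 2.3.3, numpy 2.4.6 and scipy 1.17.1, and plots with matplotlib 3.10.9. No gene or sequence was assigned, as no dm3 reference was used here.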

Additional observations from a re-analysis of the deposited data

How the results depend on the processing

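The counts of the interval stayed within 1.5 times of their stated relation to the median window under all 6 alternatives per list, from 1.85 to 2.29 times for early and from 2.60 to 3.67 times for late positions. With bounds moved inward by 20 kb, however, 14 of 85 windows held as many early positions or more and 12 as many late ones or more. Shares with a partner depended on the criterion. With an overlap of at least 1 bp, 9.09% of early and 15.8% of late members had one. With a limit of 20 bp, 73.7% of late members had one. With lists of equal length, which keep 14 early members, the shares were 85.7% early and 57.9% late. The shares of the whole lists under these other criteria were not computed, so these values do not compare the interval with other positions. Chaining up to 1000 bp in place of 5000 bp gave 21 groups. The other 27 of 33 alternatives, those for the median score percentile included, left counts within 1.5 times and shares within their binomial interval. No paired analysis was possible because a single library stands for either age, which also leaves no replicate to omit. With depth and calling threshold unknown, an early member without a partner may have gone uncalled late for want of reads, which was not tested.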
